A study of Mus musculus with 6 samples.

Results

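Csad and Ddc encode related decarboxylases and were followed in the livers of wild type mice treated with the farnesoid X receptor (FXR) agonist GW4064. They were selected on measured values, as genes whose symbol stood alone beside a probe set in the authors' deposited list of altered probe sets. Its stated thresholds are 1.5-fold and an unadjusted p of 0.05. This gave 2 genes with 1 probe set each, out of 87 genes in that list and 22626 probe sets tested on the arrays. Any further probe sets of these genes outside the list could not be named and were not examined. Because the list was drawn from the comparison of GW4064 with vehicle on these same arrays, the differences below are given as a description, and passing or missing a threshold is no evidence for or against a response of these genes. In all, 6 adult C57BL/6J mice of wild type genotype were studied, 3 given GW4064 and 3 given vehicle, with 1 Affymetrix array of total liver RNA per mouse. Treated mice received 100 mg GW4064 per kg body weight in each of 3 doses (8 am, 6 pm and 8 am of the next day), control mice received vehicle at the same times, and tissue was collected 2 hours after the final one. Overnight fasting began with the second dose, per the methods, so vehicle and GW4064 livers share a fasted state. The sources used here do not give the sex of the mice or the makeup of the vehicle.

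Both enzymes use pyridoxal phosphate, the active form of vitamin B6, to remove the carboxyl group of an amino acid, and they belong to the same structural family as the glutamate and histidine decarboxylases. Csad (cysteine sulfinic acid decarboxylase) turns cysteine sulfinic acid into hypotaurine, from which the liver makes taurine, and mouse hepatocytes join taurine to most of their bile acids before secretion. Ddc (dopa decarboxylase, also called aromatic L-amino acid decarboxylase) makes dopamine from L-dopa and serotonin from 5-hydroxytryptophan, and is present in liver and kidney as well as in neurons. FXR is the nuclear receptor for bile acids, binds DNA together with RXR, most often at an inverted repeat of a half-site with 1 base between (IR1), and induces Nr0b2, whose product SHP represses bile acid synthesis.

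Csad lies on chromosome 15 and Ddc on chromosome 11 (bands A1 to A4), as the authors' deposited list gives them. RefSeq annotates 2 promoter windows for each gene on GRCm38.p6, each reaching from 250 bases before to 50 bases after a transcription start. Both genes lie on the minus strand, and the starts are 16009 bases apart in Csad and 7736 bases apart in Ddc. The arrays measure the transcript and do not tell which start was used, so both windows of each gene are shown, 5′ to 3′ along the gene. Capitals mark exact matches, on either strand, to the nuclear receptor half-site AGGTCA, its variant GGGTCA and the TATA box letters TATAAA.
Csad upstream start, chr15:102205003-102205302, minus strand: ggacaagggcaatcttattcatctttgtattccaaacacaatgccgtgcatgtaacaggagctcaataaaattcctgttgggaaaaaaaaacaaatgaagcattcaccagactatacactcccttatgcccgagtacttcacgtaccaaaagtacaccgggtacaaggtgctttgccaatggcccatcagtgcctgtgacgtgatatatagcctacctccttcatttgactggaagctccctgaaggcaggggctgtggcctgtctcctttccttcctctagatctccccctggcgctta
Csad downstream start, chr15:102188994-102189293, minus strand: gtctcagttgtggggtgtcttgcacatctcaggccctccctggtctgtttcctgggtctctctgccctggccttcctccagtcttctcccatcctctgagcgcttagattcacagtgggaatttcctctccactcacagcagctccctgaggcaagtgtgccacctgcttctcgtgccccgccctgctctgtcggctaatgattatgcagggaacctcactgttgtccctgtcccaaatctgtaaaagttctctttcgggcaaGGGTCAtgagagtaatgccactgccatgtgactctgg
Ddc upstream start, chr11:11898095-11898394, minus strand: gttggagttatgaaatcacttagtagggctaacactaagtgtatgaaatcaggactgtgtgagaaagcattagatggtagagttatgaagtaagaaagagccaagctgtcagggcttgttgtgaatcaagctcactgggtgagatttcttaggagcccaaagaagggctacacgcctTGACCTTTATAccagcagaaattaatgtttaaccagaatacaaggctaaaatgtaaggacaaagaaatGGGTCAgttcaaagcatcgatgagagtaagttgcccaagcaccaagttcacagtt
Ddc downstream start, chr11:11890359-11890658, minus strand: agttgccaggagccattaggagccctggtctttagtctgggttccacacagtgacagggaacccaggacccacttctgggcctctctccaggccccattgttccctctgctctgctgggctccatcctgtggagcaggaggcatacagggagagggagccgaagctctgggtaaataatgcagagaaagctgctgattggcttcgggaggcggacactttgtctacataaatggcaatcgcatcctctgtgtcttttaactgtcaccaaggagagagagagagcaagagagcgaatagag

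The letters differed between the genes. The Ddc window of the upstream start held AGGTCA on the opposite strand at bases -73 to -68, counted from the start base as 0, and TATAAA on the opposite strand at -68 to -63, so these matches share 1 base. It also held GGGTCA at -5 to 0, across the start itself. The Csad window of the downstream start held GGGTCA at 13 to 18. The other window of each gene held none of these letters. Among all 32851 mouse promoter windows of this length, 16.3% held AGGTCA, 13.7% held GGGTCA and 13.6% held TATAAA, so such matches are common. The full IR1, AGGTCA followed by any base and then its reverse complement TGACCT, was in none of the 4 windows and in 3 of all windows (0.00913%). The half-site extended for the SHP partner NR5A2, TCAAGGTCA, was in none of the 4 and in 0.423% of all. The closest stretch to IR1 had 4 mismatches over its 12 fixed bases in both Csad windows and in the upstream Ddc window, which 56.4% of all windows equalled or bettered, and 5 mismatches in the downstream Ddc window. The upstream windows had GC contents of 47.3% in Csad and 41.3% in Ddc, and the downstream windows 55.3% and 54.3%, against a median of 52.7%. These matches describe letters near the starts and say nothing of binding, and sites outside the windows were not searched. The paper's supplement names Csad among genes with upstream FXR binding sites in livers of GW4064-treated mice. Those binding data came from an earlier study and were not normalized to an IgG control. Whether such a site bears on the Csad level was not tested.

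**Figure D1:**
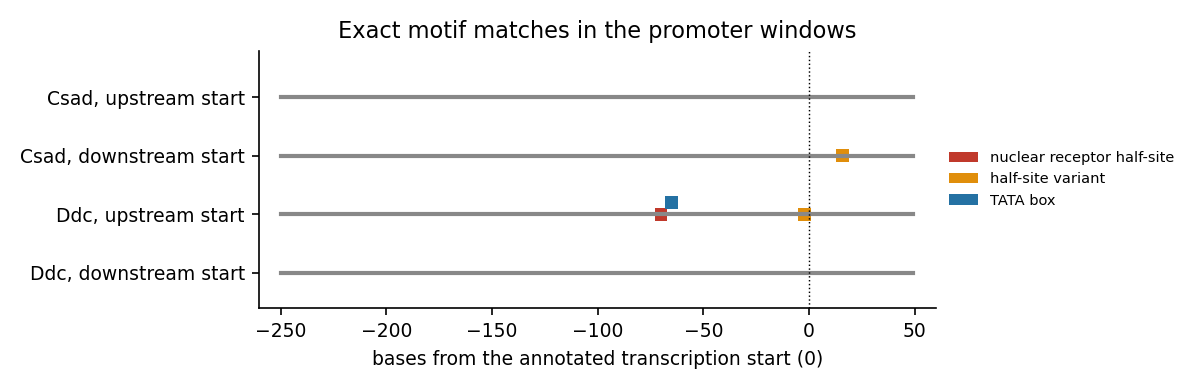
Exact matches to the half-site AGGTCA, its variant GGGTCA and the TATA box letters in the promoter windows of Csad and Ddc, by distance in bases from the annotated start (dotted line). Grey bars are the windows, and coloured blocks the matches on either strand. Matches lie in the upstream Ddc window and in the downstream Csad window, and the other windows have none.

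Array medians lay between 5.87 and 5.89 on the log2 scale, so the arrays were on a common scale. Across the 22626 probe sets, Csad and Ddc included, limma called 0 (0%) at an adjusted p under 0.05 and 1985 at an unadjusted p under 0.05, and the unpaired test that the methods name gave 0 and 1427. Averaged over the vehicle arrays, Pearson correlations across probe sets were 0.9868, 0.9927 and 0.9950 in GW4064 replicates 1, 2 and 3, and 0.9946 to 0.9948 among the vehicle arrays themselves. GW4064 replicate 1 therefore stood farthest from vehicle, while replicate 3 lay as near to the vehicle arrays as these lay to each other. Without replicate 3, limma called 70 probe sets at an adjusted p under 0.05, and the cause was not tested. Values without replicate 1 and without replicate 3 are given for both genes. Of 27 markers of hepatocytes and of other liver cells, 0 stood in the authors' list of altered probe sets. No other source paired probe sets with genes, so the markers may be on the arrays, and the cell makeup of the livers was not examined here. In whole liver RNA, fewer cells of a type and less RNA per cell cannot be told apart.

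Csad, the taurine enzyme, was at 11.28, 11.56 and 11.43 on the log2 scale in vehicle replicates 1, 2 and 3. In GW4064 replicates 1, 2 and 3 it was at 8.08, 8.50 and 9.43. Every treated mouse lay below every vehicle mouse, and the gap between the highest treated and the lowest vehicle mouse was 1.84, wider than the range within either group (0.28 in vehicle, 1.35 in GW4064). The means were 11.42 ± 0.14 and 8.67 ± 0.69 (SD, n = 3 each), so that treated livers were 6.72-fold lower, with a log2 difference of -2.75 (limma standard error, SE, 0.29). Because limma draws each SE towards those of other probe sets, the SEs of Csad and Ddc are smaller than their own spread would give. On a linear scale Csad stood at 9.89%, 13.2% and 25.2% of the vehicle mean in the 3 treated mice. Thus the transcript remained measurable in each treated liver, and its remaining level differed among them. Without GW4064 replicate 1 the difference was -2.45 (SE 0.25) or 5.48-fold, and without replicate 3 it was -3.13 (SE 0.15) or 8.75-fold. The probe set of Csad has the suffix _a_at, which by Affymetrix design marks several transcripts of the same gene, so single Csad transcripts cannot be told apart.

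Ddc, the aromatic amine enzyme, was at 10.59, 9.91 and 10.37 in vehicle replicates 1, 2 and 3. In GW4064 replicates 1, 2 and 3 it was at 9.16, 9.64 and 9.68. The groups did not overlap here either, but the gap was 0.24, narrower than the range of the vehicle mice (0.68) and of the treated mice (0.52). The means were 10.29 ± 0.35 and 9.50 ± 0.29 (SD, n = 3 each), so that treated livers were 1.74-fold lower, with a log2 difference of -0.80 (SE 0.20). In the treated mice Ddc was at 45.7%, 63.8% and 65.3% of the vehicle mean. Replicate 1 was the lowest, while replicates 2 and 3 differed little. Without GW4064 replicate 1 the difference was -0.63 (SE 0.18) or 1.55-fold, and without replicate 3 it was -0.89 (SE 0.22) or 1.85-fold. Vehicle replicate 2, the lowest control, lay closest to the treated mice, and without it the difference was -0.99 (SE 0.17) or 1.98-fold.

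**Figure D2:**
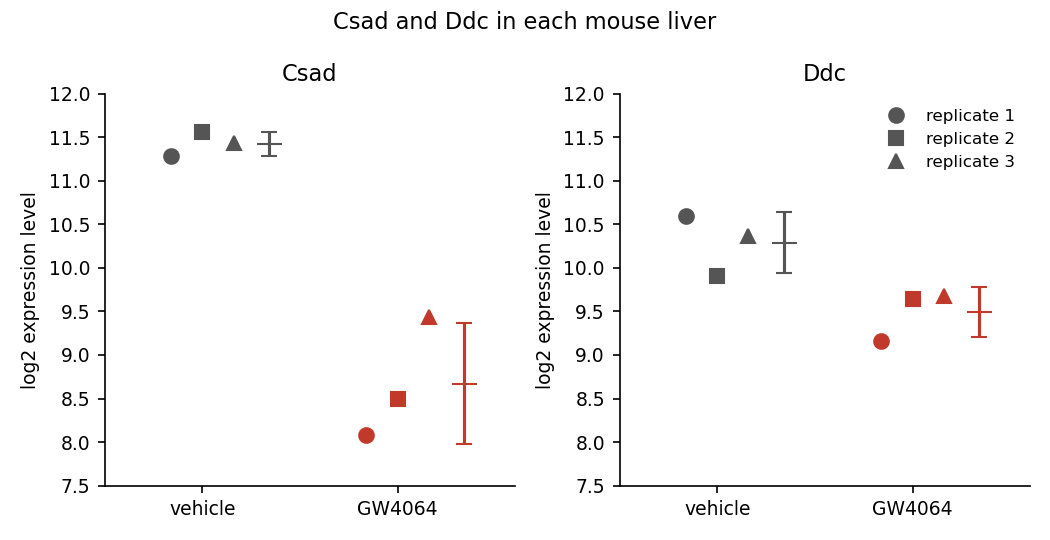
Log2 expression level of Csad (left) and Ddc (right) in each of the 3 vehicle (grey) and 3 GW4064 (red) livers, with mean ± SD beside the points and a shape for each replicate number, which pairs no mice. The gap between the groups is 1.84 for Csad and 0.24 for Ddc.

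Both genes were lower without overlap, as were 1620 of all tested probe sets (7.16%), and both were lower at 1.5-fold and an unadjusted p under 0.05 by limma, as were 140 (0.619%). By the test that the methods name, 38 probe sets (0.168%) were lower at those thresholds. Since these genes came from a list made at such a threshold, nothing is read from their passing it. Only 2 of 22626 probe sets had a lower difference than Csad (0.00884%), whereas 101 did for Ddc (0.446%). Among the 50 probe sets with lower values in the authors' deposited list Csad ranked 1 and Ddc ranked 22. At the edge of that list, the smallest fall of a listed probe set was -0.33 in the present values (1.26-fold), and the largest fall under 1.5-fold outside it, at an unadjusted p of at most 0.05 by the methods' test, was -0.58 (1.49-fold). The pair therefore stands at unlike places in the list, Csad at its extreme and Ddc near its middle.

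**Figure D3:**
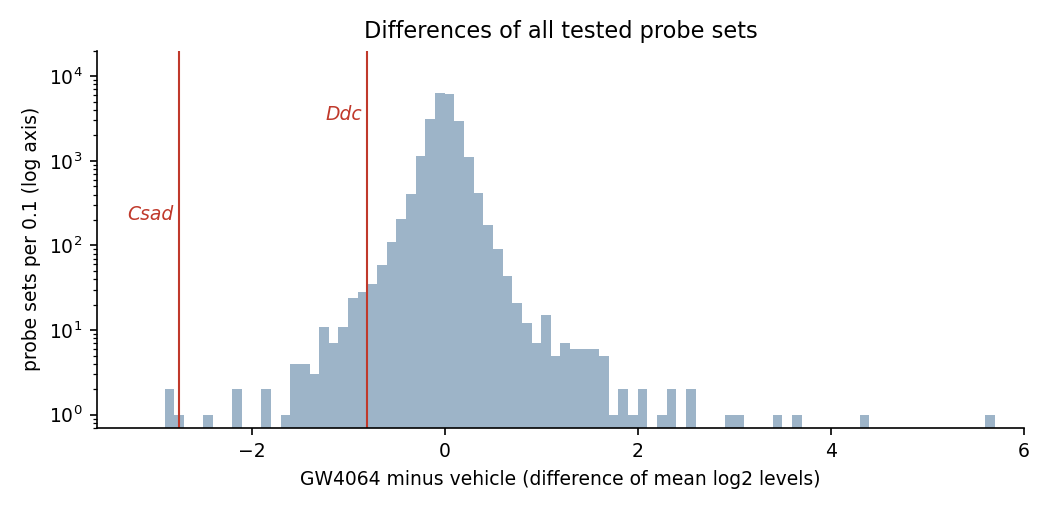
Number of probe sets (log axis, bins of 0.1) by the difference of mean log2 levels, GW4064 minus vehicle, for all 22626 tested probe sets. Red lines mark Csad at -2.75, beyond all but 2 probe sets on the lower side, and Ddc at -0.80, in the lower tail, beyond all but 101.

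The genes differed in how much the mice varied within a group. In vehicle livers the SD of Csad was 0.140, and 63.7% of probe sets had a smaller SD, so control mice lay within 0.28 of each other. In GW4064 livers its SD was 0.690, and 99.2% of probe sets had a smaller SD. Ddc varied in both groups, with an SD of 0.346 in vehicle (97.2% smaller) and 0.288 in GW4064 livers (92.5% smaller), where the medians over all probe sets were 0.111 and 0.114. The SD of Csad was thus larger among treated than among control mice, while that of Ddc was similar in both. With 3 mice a group these SDs are imprecise, and their difference was not tested.

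The mice were not ranked alike by both genes. Among treated mice replicate 1 was lowest and replicate 3 highest for both, an order held by 32 of the 50 lower probe sets of the list (64.0%), by 32.8% of all probe sets that were lower without overlap and by 19.6% of all tested probe sets. Among vehicle mice the order was opposite. Csad was highest in replicate 2 and lowest in replicate 1, whereas Ddc was highest in replicate 1 and lowest in replicate 2. Over the 6 arrays the levels of the pair had a Pearson r of 0.86, which rests largely on the shared difference between the groups, and r was 0.34 for the deviations from the group means. Set against the vehicle means, Csad minus Ddc was -2.21, -2.27 and -1.38 on the log2 scale in GW4064 replicates 1, 2 and 3 and -1.95 between the group means, so Csad had fallen further in each treated mouse.

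The enzymes around Csad and Ddc were sought in lists of taurine synthesis, transport and conjugation (14 genes), pyridoxal phosphate decarboxylases (10), aromatic amine synthesis and breakdown (20) and pyridoxal phosphate supply (5). Probe sets could be named only through the authors' deposited list of altered probe sets. Of the 46 distinct genes only Csad, Ddc and Sult1d1 stood in it, and genes absent from it may still be measured on the arrays. The other 43, such as the cysteine dioxygenase gene Cdo1, which acts before Csad, and the taurine conjugation gene Baat, are not analysed here. Sult1d1, a sulfotransferase that in the mouse conjugates dopamine and other catecholamines, was at 11.21, 10.86 and 10.68 in vehicle replicates 1, 2 and 3 and at 11.44, 11.65 and 11.48 in GW4064 replicates 1, 2 and 3. Sult1d1 lay higher in every treated mouse, by 0.61 (SE 0.14) or 1.52-fold, opposite in direction to Ddc. As a gene of that list it too was selected on this contrast, so its difference is a description. The 3 treated mice stood within 0.21 of each other for Sult1d1, whereas they ranged over 0.52 for Ddc.

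Of the bile acid genes, Nr0b2 is the FXR target named above and Cyp8b1 encodes the hydroxylase that steers synthesis towards cholic acid. Both stood in the authors' list, selected on this same contrast, so their differences are descriptions too. Relative to the vehicle mean, Cyp8b1 was at -3.76, -2.08 and -1.42 on the log2 scale in GW4064 replicates 1, 2 and 3, and Csad was at -3.34, -2.92 and -1.99. The mice thus held the same order for both genes, with a wider spread for Cyp8b1 (range 2.34) than for Csad (1.35). Nr0b2 lay 2.81, 1.44 and 1.11 above the vehicle mean in those mice, so the mouse with the highest Nr0b2 had the lowest Csad, Ddc and Cyp8b1. That mouse, replicate 1, also had the array farthest from vehicle. The order of treated mice seen for Csad, Ddc and Cyp8b1 was held by 64.0% of the lower probe sets of the list, so it is not particular to these genes. The deviations of Csad from its group means had r = 0.81 with those of Cyp8b1 and r = -0.78 with those of Nr0b2, and those of Ddc had r = 0.71 and r = -0.66. With the deviations of Sult1d1, r was -0.15 for Csad and 0.49 for Ddc. These are descriptions over 6 arrays that share the same RNA samples, with no test.

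**Figure D4:**
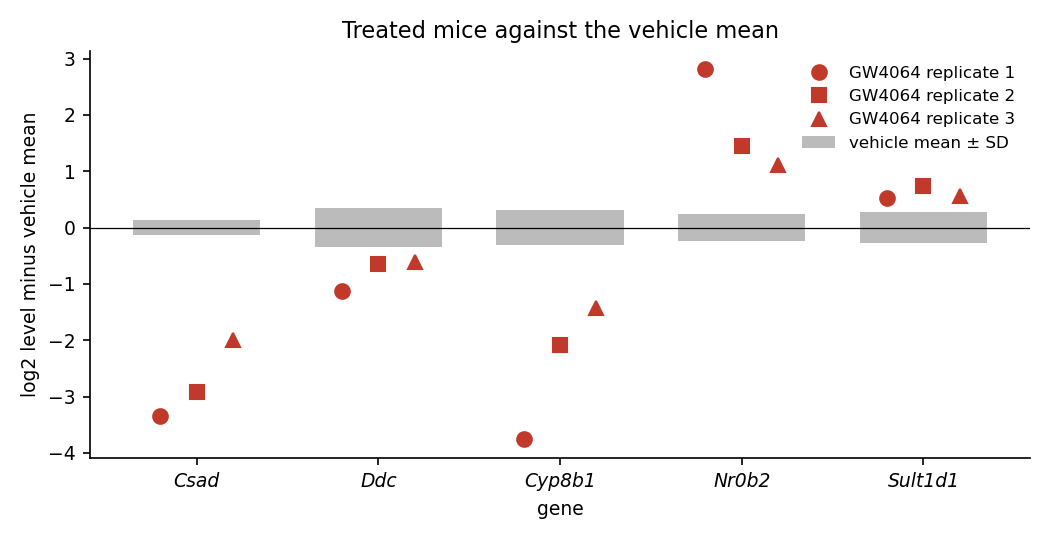
Log2 level minus the vehicle mean in each of the 3 GW4064 livers (red, a shape per replicate) for Csad, Ddc, Cyp8b1, Nr0b2 and Sult1d1, with the vehicle mean ± SD in grey. Replicate 1 is farthest from 0 for the first 4 genes, and Sult1d1 is higher by a similar amount in all 3 mice.

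The listed genes whose levels ran most like each member were then taken by Pearson r over the 6 arrays, among the 86 other genes of the authors' deposited list. For Csad these were Epb41l2, a membrane skeleton gene (r = 0.986), the fatty acid hydroxylase gene Cyp4a12a (0.983), the thiamine transporter gene Slc19a2 (0.972), the small heat shock protein gene Hspb1 (0.971) and the scaffold protein gene Ppfibp2 (0.958). All 5 were lower in GW4064 livers, by 1.51-fold (Slc19a2) to 2.19-fold (Hspb1), against 6.72-fold for Csad. Among treated mice, replicate 1 was lowest and replicate 3 highest for 4 of them, as for Csad, the exception being Ppfibp2. Since they were chosen by r over these arrays, a shared order of the mice follows largely from the choice. The deviations of 4 of them from the group means had r with those of Csad from 0.83 (Slc19a2) to 0.97 (Epb41l2), and those of Ppfibp2 had r = 0.41.

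For Ddc the most similar genes were Igfbp1, a binding protein gene of insulin-like growth factors that responds to fasting and insulin (r = 0.985), the membrane protein gene Rell1 (0.973), the actin-severing gelsolin gene Gsn (0.964) and the DNA replication genes Mcm7 (0.963) and Mcm10 (0.961). Igfbp1 was at 11.68, 10.54 and 11.46 in vehicle replicates 1, 2 and 3 and at 9.11, 9.75 and 10.31 in GW4064 replicates 1, 2 and 3, which is 2.84-fold lower in the mean (-1.51, SE 0.35). As for Ddc, vehicle replicate 1 was the highest and vehicle replicate 2 the lowest control. The other 4 genes had that order too, which follows largely from their choice by r over these arrays, and were lower by 1.26-fold (Gsn, whose groups overlapped) to 1.93-fold (Mcm10), and the deviations of all 5 from their group means had r from 0.87 to 0.96 with those of Ddc. The 5 genes most like Csad and the 5 most like Ddc had 0 genes in common, which is not read as a difference, since such short sets often share none. Such likeness was not confined to listed genes, since 78 of 22625 other probe sets (0.345%) reached the fifth r for Csad and 44 (0.194%) that for Ddc. Probe sets of Epb41l2, Gsn and Mcm7 end in _s_at or _x_at, by which Affymetrix marks probes that may also bind transcripts of further genes.

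**Figure D5:**
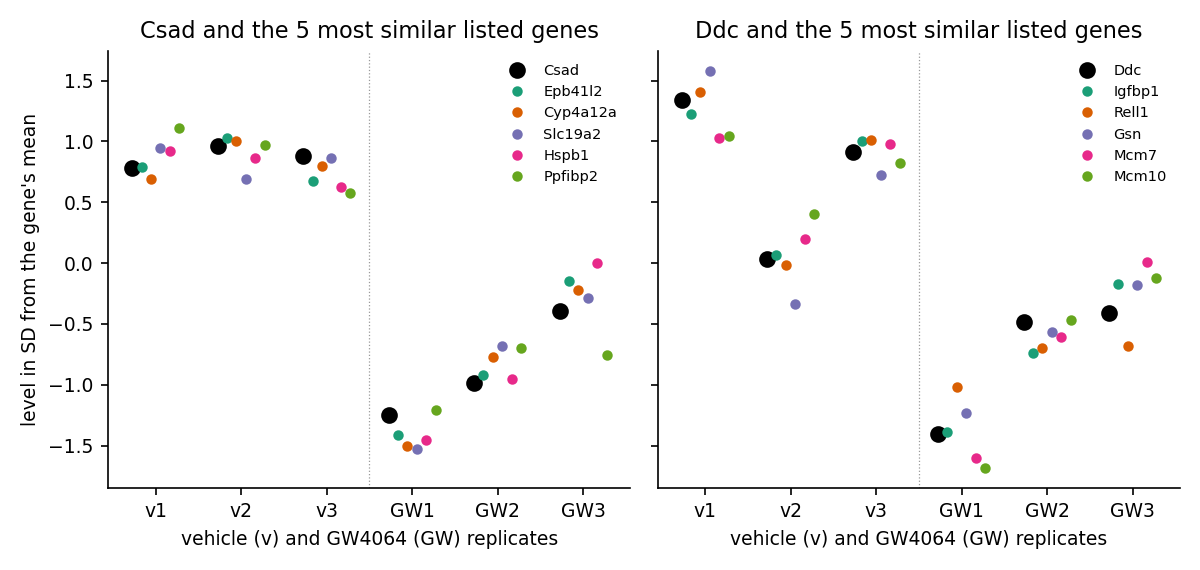
Levels of Csad (left, black) and Ddc (right, black) and of the 5 listed genes most like each, in SD from each gene's own mean, in the vehicle (v) and GW4064 (GW) replicates. On the right all 6 genes are lowest among the controls in vehicle replicate 2, and on the left only Slc19a2 is.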

How the data were processed

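Expression was measured in liver RNA of 6 mice on 1 array each. The authors deposited log2 values for each probe set, already normalized between arrays and, per the methods, made with Affymetrix Power Tools. The sources used here do not give the summarisation or version. The labels name the Mouse Gene 1.0 ST array, but the probe sets and a file header are those of Mouse430A_2. The authors' deposited list of altered probe sets served only to name genes (110 probe sets, 99 with 1 symbol); its other column, the authors' linear fold, was not used. Gene symbols were updated by Entrez identifier through RefSeq (GRCm38.p6), which also gave the promoters.

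Of 22690 probe sets, 64 controls were set aside. The groups were contrasted with limma 3.58.1 under R 4.3.3 (group only, two-sided, Benjamini-Hochberg over 22626 probe sets, threshold 0.05), and checked on simulated data. Replicates are separate mice, and their number limits the precision. Named genes were the 2 members, the 5 listed genes most correlated with each, listed pathway genes, Nr0b2 and Cyp8b1. Members, lists and settings were chosen with earlier results of these data known. Where a gene had several probe sets in the authors' list, that of highest mean was used. Arrays were left out in turn, renormalized by quantiles, weighted, blocked by replicate number or freed of dim probe sets (mean under 5.88), and the t-test of the methods and another prior were run.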

Additional observations from a re-analysis of the deposited data

How the results depend on the processing

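Csad and Ddc were lower under every alternative run. No difference moved by more than the pooled SD within groups, 0.498 for Csad and 0.318 for Ddc. Leaving out 1 of 3 mice in a group cannot move a difference that far, so for those runs this was fixed in advance. Csad moved by more than its vehicle SD of 0.140 without GW4064 replicate 1 or 3 and with medians in place of means (-2.93). Leaving out 1 array gave -3.13 to -2.45 for Csad and -0.99 to -0.63 for Ddc. As neither gene overlapped between the groups, leaving out or weighting arrays could not turn a direction. With the replicate block the differences were -2.75 (SE 0.23) and -0.80 (SE 0.21), unchanged as balanced groups require. Leaving out dim probe sets cannot change these differences either. With the block, 0 and 304 probe sets were called at the adjusted threshold and at 1.5-fold and unadjusted p under 0.05. The titles name no pairing, and deviations of same-numbered mice correlated at -0.00194, 0.0533 and -0.0337. Over all probe sets the latter count was 283 with all arrays and 97 by the t-test of the methods, which takes each probe set's spread from that probe set alone. Without 1 array it was 158 (without GW4064 replicate 1) to 573 (without GW4064 replicate 3), and 0 to 70 at the adjusted threshold, 70 without GW4064 replicate 3; the cause was not tested. The mean over several probe sets of a gene was not run, since each gene had 1 in the list.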
